A study of Mus musculus with 59 samples.

Results

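The remote response is the difference between left ventricle tissue outside an infarct and the matching tissue of sham-operated mice, and the shift is how far that difference moved from 48 h to 1 week after surgery. It was measured on the log2 scale as remote minus sham upper at 1 week, minus remote minus sham upper at 48 h, for every gene tested. The arrays were chosen by their titles, 3 for remote tissue and 3 for sham upper tissue at each of both times, which made 12 of the 59 arrays of the series. Per the labels, the mice (Mus musculus) had a myocardial infarction or a sham operation. Remote tissue was left ventricle of infarcted mice above the LAD (left anterior descending) artery and so above the infarct, and sham upper tissue was the same part of the ventricle in sham-operated mice. No strain, genotype, drug, sex or age is given in the labels used here, and how the infarct was made is not given either. Each array stood for 1 piece of tissue. Total RNA was measured on Affymetrix oligonucleotide arrays, which report an intensity per probe set and not a count. Intensities below are the deposited values, listed in the order of the title numbers, and log2 differences were taken after 45.6 was added to each intensity.

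After a coronary artery is blocked, the muscle it feeds dies, neutrophils and then macrophages clear it, and fibroblasts lay down a scar of collagen. The muscle outside the scar survives, but it carries more load and receives signals from the injury and the circulation. Cardiomyocytes draw most of their ATP from the oxidation of fatty acids in mitochondria. Genes for natriuretic peptides are known to go up in loaded or injured ventricles, and genes for collagens in activated fibroblasts.

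Cardiomyocyte markers were bright on all 12 arrays, with Myh6, the myosin heavy chain of adult ventricle, at 16398 or more. The summed intensity of 17 cardiomyocyte markers was 260270 to 314190 in sham tissue and 247869 to 297535 in remote tissue at 48 h, and 266237 to 299959 and 180528 to 231709 at 1 week. Lung markers, 6 in all, summed to no more than 744 on any array, and 0 markers of any list were at 0. The 744 was on the remote 48 h array of the highest title number, with 319 and 331 on the others of its group. Thymocyte markers summed to 1456 on that array, against 572 and 573. Single-array medians lay between 156.9 and 194.9. They were lowest in sham tissue at 1 week (156.9 to 164.1) and 188.3 to 194.9 in remote tissue at 1 week. The ratio of the 3' to the 5' probe set of Gapdh was 0.838 to 0.953. The numbers in the titles fell into 1 range for sham mice and another for infarcted mice at 48 h, while at 1 week the ranges overlapped. What the numbers stand for is not given, and infarction and whatever separates the ranges cannot be told apart at 48 h. Nothing in the labels says that arrays of a group came from separate mice, and p-values then measure the spread between these samples only.

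Between 48 h and 1 week the remote response shifted in 906 of 6670 genes, 13.6% of those tested. The shift was higher in 572 genes (8.58%) and lower in 334 (5.01%) by limma at an adjusted p below 0.05, after Benjamini-Hochberg adjustment over all genes, which is what called means here, and 338 and 68 of them shifted at least 2-fold. The response itself took in 588 genes at 48 h (8.82%), with 298 higher and 290 lower in remote tissue (4.47% and 4.35%). At 1 week it took in 2558 genes (38.4%), with 1379 higher and 1179 lower (20.7% and 17.7%). Across genes, which are not independent replicates, the responses at both times had a Pearson correlation of 0.45 and shared no array. The plot of the response at 1 week against that at 48 h shows Postn far above the diagonal, H2-Aa crossing from lower to higher than sham, and Slc25a20 below the diagonal.

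Most of the shift was a response that was called at 1 week only. Of the 572 higher genes 491 (85.8%) were called at 1 week and not at 48 h, 21 at 48 h only, 25 at both times in the same direction, 10 at both times in opposite directions and 25 at neither. Of the 334 lower genes the counts were 259 (77.5%), 37, 6, 6 and 26. The remote arrays themselves moved the way of the shift, and were called, in 483 of the higher and 273 of the lower genes, against 894 genes higher (13.4%) and 675 lower (10.1%) between the remote groups over all genes. Sham tissue moved against the shift, by any size, in 494 of the higher (86.4%) and 323 of the lower genes (96.7%). Such a move adds to the shift, so choosing called genes favours it. Remote tissue moved more than sham in 488 and 283 of them. Sham tissue differed between the times in 57 genes (0.855%), 11 higher and 46 lower at 1 week. That count was 0 to 18 with any 1 sham array of the 2 groups left out, 8 after quantile normalization and 565 with array weights. The early response did not fade as a whole: of the 298 genes higher at 48 h, 180 (60.4%) were also higher at 1 week, against 20.7% of all genes. Of the 290 lower genes 184 (63.4%) were also lower, against 17.7% of all genes. Without the remote 1-week array of the highest number, 500 genes were called in the shift (346 higher, 154 lower) and 733 of 1569 between the remote groups. For the response at 48 h, 333 were called without the sham array with the middle number and 285 without the remote array with the highest, and a fit of the 12 arrays alone called 492 genes in the shift.

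**Figure D1:**
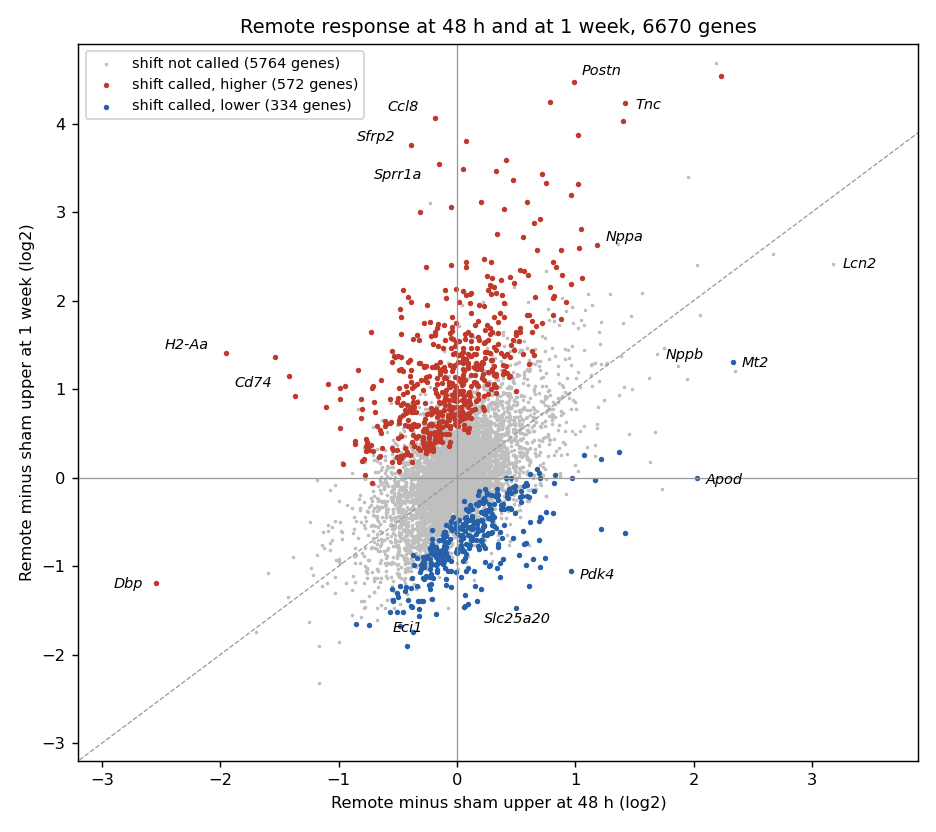
Each point is 1 of 6670 genes, placed by its log2 difference between remote and sham upper tissue at 48 h (x axis) and at 1 week (y axis), in red or blue where the shift was called and grey where it was not; the dashed line marks equal responses. Postn lies at 0.99 and 4.47, H2-Aa at -1.95 and 1.41, and Slc25a20 at 0.17 and -1.40.

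Genes of the collagen matrix had the largest share of members called higher among 32 pathway lists. Fibrillar collagen and matrix genes had 27 of 34 called higher and a median shift of 1.81, where 8.58% of all genes were called higher and their median was 0.06. The list's median response went from 0.25 at 48 h to 2.06 at 1 week. In lists described with calls in 1 direction, limma called 0 members the other way, and 0 to 1 of a pathway list's members reached an unadjusted p below 0.05 that way. Postn measured 499, 955 and 801 in sham tissue and 1481, 2289 and 971 in remote tissue at 48 h. Postn at 1 week measured 479.9, 439 and 655 in sham tissue and 11317, 12962 and 13152 in remote tissue. Postn encodes periostin, a matricellular protein of activated fibroblasts, and its remote arrays lay above sham at both times, with every remote array at 1 week above every other array. Its remote level was 1.99 times sham at 48 h and 22.2 times sham at 1 week on the scale of the fit, a shift of 3.48 ± 0.39 (SE, adjusted p = 1.6e-07). Col1a1 measured 1653, 2032 and 2621 in sham tissue and 2918, 5076 and 2696 in remote tissue at 48 h. Col1a1 at 1 week measured 1263, 1485 and 2599 in sham tissue and 17665, 19962 and 18720 in remote tissue. Col1a1 encodes a chain of type I collagen, the main fibre of the scar, and the remote arrays at 1 week formed a tight group above the other 9, a shift of 2.72 ± 0.52 (SE, adjusted p = 0.00046). On its second probe set the shift was 0.65 (adjusted p = 0.11).

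Other collagen chains were called too. Col3a1, which encodes type III collagen, shifted by 2.88 ± 0.46 (SE, adjusted p = 5e-05), and its other probe sets by 3.35 and 2.60. Col1a2, the partner chain of Col1a1, shifted by 3.14 ± 0.46 (SE, adjusted p = 1.5e-05) on the brighter of its probe sets, with -0.02 (adjusted p = 0.96) on the other. Col11a1 measured 88.6, 109 and 57.1 in sham tissue and 110.3, 68.4 and 94.9 in remote tissue at 48 h. Col11a1 at 1 week measured 54.7, 62.5 and 8.5 in sham tissue and 713, 1002 and 1963 in remote tissue. Col11a1, a chain of a minor fibril collagen that is best known from cartilage, was near the dim end in sham and in remote tissue at 48 h and shifted by 3.73 ± 0.58 (SE, adjusted p = 3e-05). Col8a1, a short-chain collagen of vessel walls, shifted by 3.18 ± 0.39 (SE, adjusted p = 9.4e-07), Col15a1 by 2.03 ± 0.27 and Col6a1 by 1.85 ± 0.27. The small proteoglycan gene Fmod, whose product binds collagen fibrils, shifted by 3.44 ± 0.95 (SE, adjusted p = 0.013), and Fndc1, which encodes a fibronectin type III domain protein, by 3.30 ± 0.41 (SE, adjusted p = 9.4e-07). Mfap2, a microfibril protein gene, shifted by 1.97 ± 0.27.

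Matricellular and repair proteins had 11 of 20 called higher and a median shift of 1.54. Sfrp2 measured 184, 247 and 168 in sham tissue and 156, 83.7 and 201 in remote tissue at 48 h. Sfrp2 at 1 week measured 69.7, 114 and 139 in sham tissue and 1268, 1863 and 3309 in remote tissue. Sfrp2 encodes a secreted binding partner of Wnt ligands, and it did not stand above sham at 48 h, while all 3 remote arrays at 1 week exceeded all others, for a shift of 4.15 ± 0.55 (SE, adjusted p = 3e-06). Tnc, which encodes tenascin-C, was already higher at 48 h (1.42) and higher still at 1 week (4.23), a shift of 2.80 ± 0.50 (SE, adjusted p = 0.00024) that was 1.62 on its second probe set. Mdk, the gene of the growth factor midkine, shifted by 2.58 ± 0.42 (SE, adjusted p = 6.9e-05), and Fstl1, a secreted follistatin-like protein gene, by 2.16 ± 0.34 (SE, adjusted p = 3.9e-05). The protease inhibitor Timp1 was higher in remote tissue at both times, by 1.95 and 3.40, and its shift of 1.45 ± 0.51 (SE, adjusted p = 0.052) just missed the threshold. Serpinf1, which encodes the secreted protein PEDF, shifted by 3.11 ± 0.45 (SE, adjusted p = 1.5e-05) on its brighter probe set, with -0.37 (adjusted p = 0.72) on the other. C1qtnf3, a secreted C1q and TNF related protein gene, was at or below 30.7 in sham tissue and in remote tissue at 48 h. In remote tissue at 1 week it measured 282, 524 and 914, a shift of 2.91 ± 0.38 (SE, adjusted p = 2.7e-06). Of the 12 arrays those alone reached the 108.2 that a gene needed on 3 arrays to be tested. Its place in the test thus came from arrays where it was high, and infarct arrays at 1 week averaged 1041.1.

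Matrix proteases had 7 of 20 called higher and a median shift of 0.49. Mmp12 measured 74.7, 12.4 and 67.7 in sham tissue and 145, 75.8 and 133 in remote tissue at 48 h. Mmp12 at 1 week measured 40.2, 10.9 and 71.0 in sham tissue and 1194, 862 and 3407 in remote tissue. Mmp12 is the elastase of macrophages, and its shift of 3.45 ± 0.85 (SE, adjusted p = 0.0054) was matched by 2.51 (adjusted p = 0.028) on a second probe set. Mmp14, a membrane-bound collagenase gene, went from 0.89 above sham at 48 h to 2.29 at 1 week, a shift of 1.40 ± 0.30 (SE, adjusted p = 0.0019). Fap, the gene of a serine protease of activated fibroblasts, shifted by 1.66 ± 0.26 (SE, adjusted p = 4.3e-05). Basement membrane genes had 5 of 21 called higher and a median shift of 0.33, among them Sparc, which encodes a collagen-binding matricellular protein, at 1.99 ± 0.31 (SE, adjusted p = 3e-05), Col4a5 at 1.15 ± 0.22 and Col18a1 at 1.26 ± 0.30. The other probe sets of Col18a1 gave 1.40 (adjusted p = 0.06), 2.44 (adjusted p = 0.00011) and 0.65 (adjusted p = 0.19). The TGF-beta and BMP list had 6 of 32 called higher and a median shift of 0.26, but 2 called without the remote 1-week array of the highest title number and 3 with the 12 arrays alone. The 12 arrays alone also gave 4 matrix protease and 3 basement membrane genes. Tgfb3, a ligand of that family, shifted by 1.25 ± 0.37 (SE, adjusted p = 0.019). Tgif1, a repressor of its Smad signalling, shifted by 0.97 ± 0.25 (SE, adjusted p = 0.0087), and Nbl1, an antagonist of BMP ligands, by 2.24 ± 0.52 (SE, adjusted p = 0.0035).

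**Figure D2:**
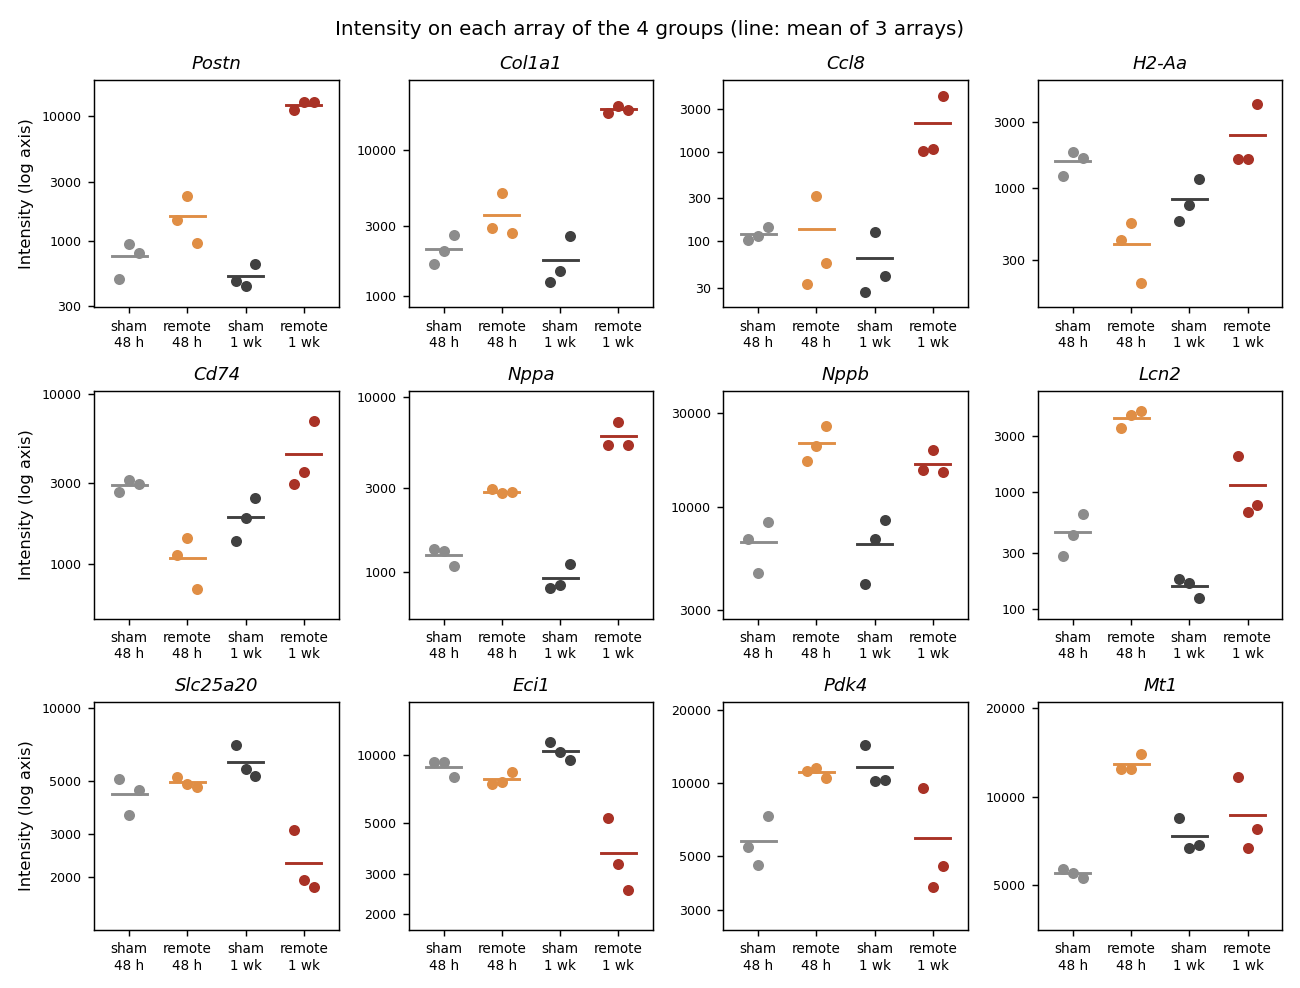
Intensity of 12 genes on a log axis for each of the 3 arrays of sham upper and remote tissue at 48 h and 1 week; the short line is the mean of 3 arrays. Postn, Col1a1 and Ccl8 are high in remote tissue at 1 week, H2-Aa and Cd74 lie below sham at 48 h and above it at 1 week, Nppb is above sham at both times, and Slc25a20 and Eci1 fall below sham at 1 week.

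The macrophage and monocyte list had 20 of 26 called higher and a median shift of 1.38, and 26 of its 26 genes were higher at 1 week against 2 at 48 h (20.7% and 4.47% of all genes). Ccl8 measured 103, 113 and 143 in sham tissue and 33.8, 322 and 57.7 in remote tissue at 48 h. Ccl8 at 1 week measured 27.4, 125 and 40.9 in sham tissue and 1007, 1072 and 4222 in remote tissue. Ccl8 encodes a chemokine that attracts monocytes, and it had the largest rise of all genes, 4.25 ± 0.71 (SE, adjusted p = 7.7e-05), and the remote 1-week array of the highest title number led its group. Ctss measured 668, 971 and 1354 in sham tissue and 1372, 1822 and 842 in remote tissue at 48 h. Ctss at 1 week measured 699, 839.6 and 884 in sham tissue and 6058, 6224 and 8826 in remote tissue. Ctss encodes cathepsin S, a lysosomal protease that trims the class II invariant chain, and it shifted by 2.63 ± 0.44 (SE, adjusted p = 7.5e-05). Cd68, a glycoprotein gene of macrophage lysosomes, measured 1183, 1239 and 1754 in remote tissue at 1 week and no more than 502 on the other 9 arrays, a shift of 2.06 ± 0.37 (SE, adjusted p = 0.00026). Csf1r, the receptor gene for the macrophage growth factor CSF1, shifted by 1.54 ± 0.29 (SE, adjusted p = 0.00038), while its dimmer probe set was called the other way, at -1.32 (adjusted p = 0.022).

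The lysosome list had 15 of 34 called higher and 1 lower and a median shift of 0.56, with Ctsk, the collagen-cutting cathepsin K, at 1.70 ± 0.29 (SE, adjusted p = 0.00012), the cholesterol carrier Npc2 at 1.55 ± 0.29 and the beta-galactosidase Glb1 at 1.09 ± 0.21. Complement genes had 8 of 15 called higher and 1 lower and a median shift of 1.00. C3ar1, a receptor gene for a fragment of C3, shifted by 1.96 ± 0.31 (SE, adjusted p = 3e-05), and C1qa and C1qb, which encode chains of the first complement component, by 1.14 ± 0.27 and 1.17 ± 0.24. Cfi, the gene of an inhibitory protease of complement, was at or below 13.1 on the 9 other arrays and measured 103, 70.8 and 289.7 in remote tissue at 1 week. Among the 12 arrays only that at 289.7 reached the 108.2 that a gene needed on 3 arrays to be tested. Cytokine and chemokine genes had 7 of 41 called higher and a median shift of 0.41, among them the receptors Tnfrsf1b (1.34 ± 0.24), Il1r1 (1.29 ± 0.33) and Cxcr4 (1.26 ± 0.26). Ccl2, a chemokine gene for monocytes, was called at both times (1.75 at 48 h, 1.47 at 1 week) with no shift called (-0.28 ± 0.58 SE, adjusted p = 0.80, 95% interval -1.45 to 0.89). In a piece of tissue, more cells of a type and more RNA per cell cannot be told apart.

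The class II antigen presentation genes H2-Aa, H2-Ab1 and Cd74 crossed over, lower than sham at 48 h and higher at 1 week. Class II molecules display peptides to helper T cells on dendritic cells, B cells and macrophages, and class I molecules display peptides on nearly all cells. H2-Aa measured 1234, 1834 and 1654 in sham tissue and 419, 563 and 204 in remote tissue at 48 h. H2-Aa at 1 week measured 579, 761 and 1173 in sham tissue and 1621, 1629 and 4079 in remote tissue. H2-Aa encodes the alpha chain of a class II molecule; its 3 remote arrays lay below all sham arrays at 48 h and above them at 1 week, and the shift was 3.36 ± 0.52 (SE, adjusted p = 2.9e-05). Cd74 measured 2637, 3116 and 2966 in sham tissue and 1129.9, 1423 and 719 in remote tissue at 48 h. Cd74 at 1 week measured 1368, 1871 and 2442 in sham tissue and 2934, 3472 and 6925 in remote tissue. Cd74, the invariant chain gene, showed the same order of groups, with a response of -1.42 ± 0.34 (SE, adjusted p = 0.0055) at 48 h and 1.15 ± 0.34 (SE, adjusted p = 0.0066) at 1 week. H2-Ab1, the beta chain partner of H2-Aa, went from -1.54 ± 0.34 to 1.36 ± 0.34, a shift of 2.90 ± 0.49 (SE, adjusted p = 8.5e-05). Without the remote 1-week array of the highest title number the shifts were 2.94 (adjusted p = 0.00041) for H2-Aa, 2.47 (adjusted p = 0.0012) for H2-Ab1 and 2.22 (adjusted p = 0.0046) for Cd74.

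The whole class II list had 4 of 13 called higher and a median shift of 1.01, the other called gene being Ctss. Of its members 3 were lower at 48 h and 7 higher at 1 week (4.35% and 20.7% of all genes). H2-DMa and H2-DMb1, which encode the peptide-loading partner of class II, had shifts of 1.25 ± 0.46 (SE, adjusted p = 0.059) and 1.01 ± 0.35 (SE, adjusted p = 0.051), short of the threshold. For H2-Eb1, a beta chain gene, the shift was 0.03 ± 0.55 (SE, adjusted p = 0.98), and for Ciita, the gene of the class II transactivator, 0.45 ± 0.22 (SE, adjusted p = 0.17). H2-K1 measured 5840, 5986 and 5335 in sham tissue and 3955, 4179 and 2553 in remote tissue at 48 h. H2-K1 at 1 week measured 3165, 3607 and 4870.3 in sham tissue and 7715, 7524 and 8311 in remote tissue. This class I heavy chain gene also had its remote arrays below sham at 48 h and above it at 1 week. H2-K1 and H2-D1 are near-identical paralogs whose probes may share signal, and they shifted by 1.74 ± 0.28 (SE, adjusted p = 5e-05) and 1.74 ± 0.37 (SE, adjusted p = 0.0019), with 1.37 to 2.24 on their other probe sets. B2m, the light chain of class I, shifted by 1.24 ± 0.31 (SE, adjusted p = 0.0067), and H2-Q4, a class Ib gene, by 1.47 ± 0.36 (SE, adjusted p = 0.0047). Interferon-induced genes as a list had 6 of 37 called higher and a median shift of 0.40, the class I genes H2-K1, H2-D1 and B2m being among the called members. Sham arrays of H2-Aa were lower at 1 week than at 48 h by 0.91 on the log2 scale (adjusted p = 0.21), which did not pass, while the remote arrays rose between the times by 2.45 ± 0.37 (SE, adjusted p = 5.5e-06).

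Genes of antigen presentation share short promoter elements, of which the Y box CTGATTGG and the X2 box TGACGTCA were searched for on both strands in the 250 bases before each gene's start (RefSeq, GRCm38.p6). The Y box, whose other strand reads CCAATCAG, was in 3.83% of 32851 promoter windows and the X2 box, a palindrome, in 1.55%, and the letters of neither overlap the other. Of the 13 tested class II list genes 8 had a promoter window, and 3 of those held the Y box and 1 the X2 box. The windows searched for Ctss and for the class I genes H2-K1 and B2m, whose shifts were called, held neither. H2-Ab1 and Cd74 had no window. H2-Aa and H2-D1 are shown because their shifts were called, and H2-Eb1 because it holds the same Y box with no shift called; the matched letters are in capitals, and all lie in the upstream sequence at chr17:34287824-34288073 (minus strand), chr17:35262844-35263093 (plus strand) and chr17:34305617-34305866 (plus strand).
H2-Aa: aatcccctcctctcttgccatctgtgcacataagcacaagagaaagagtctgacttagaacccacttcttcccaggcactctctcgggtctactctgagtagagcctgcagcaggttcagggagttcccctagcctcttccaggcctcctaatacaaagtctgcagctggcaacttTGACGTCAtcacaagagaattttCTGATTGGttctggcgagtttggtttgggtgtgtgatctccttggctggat
H2-D1: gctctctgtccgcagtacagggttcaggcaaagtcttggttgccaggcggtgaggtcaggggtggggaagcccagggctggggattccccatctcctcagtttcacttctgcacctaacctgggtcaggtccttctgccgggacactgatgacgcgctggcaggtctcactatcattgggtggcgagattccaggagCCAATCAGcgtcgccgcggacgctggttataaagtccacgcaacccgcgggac
H2-Eb1: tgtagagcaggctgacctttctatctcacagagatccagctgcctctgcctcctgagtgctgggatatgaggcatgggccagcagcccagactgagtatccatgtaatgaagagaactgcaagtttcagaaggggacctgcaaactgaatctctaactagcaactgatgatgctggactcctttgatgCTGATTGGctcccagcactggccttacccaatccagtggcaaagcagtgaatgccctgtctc
A match of letters describes the window and says nothing of binding in these samples.

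Cell cycle and DNA replication genes had 16 of 54 called higher and a median shift of 0.76. Of the 54 genes 34 were called higher at 1 week by limma (20.7% of all genes). At 48 h limma called 0 of them higher (4.47% of all genes), with 4 at an unadjusted p below 0.05. Cdk1 measured 24.5, 22.1 and 119.8 in sham tissue and 28.9, 181 and 40.6 in remote tissue at 48 h. Cdk1 at 1 week measured 21.2, 23 and 88.3 in sham tissue and 275, 369.5 and 463 in remote tissue. Cdk1, the kinase that drives entry into mitosis, had 1 high array in each of the 3 low groups and shifted by 1.97 ± 0.54 (SE, adjusted p = 0.012). Ccna2, which encodes cyclin A2, shifted by 2.39 ± 0.51 (SE, adjusted p = 0.0016), Ccnb2, a mitotic cyclin gene, by 1.69 ± 0.37 (SE, adjusted p = 0.0019), and the Cdk subunits Cks1b and Cks2 by 1.54 ± 0.39 and 1.81 ± 0.44. Top2a, a topoisomerase of dividing cells, was called higher at 1 week (1.25), and its shift of 1.12 ± 0.45 (SE, adjusted p = 0.085) was not. Without the remote 1-week array of the highest title number 9 of the 54 genes were called higher in the shift, as were 9 without the sham 48 h array of the highest number, 8 with the 12 arrays alone and 10 after quantile normalization.

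Of 38 cytoskeleton genes 19 were called higher and 1 lower at 48 h (4.47% and 4.35% of all genes), and 30 higher and 1 lower at 1 week (20.7% and 17.7%). Their shift had 8 of 38 called higher and a median shift of 0.48, with 5 called without the sham 48 h array of the highest number and 5 with the 12 arrays alone. Tmsb4x and Tmsb10, which encode actin-binding thymosins, shifted by 1.29 ± 0.23 and 1.42 ± 0.33, and Marcks, an actin-linked membrane protein gene, by 1.90 ± 0.29 (SE, adjusted p = 2.9e-05). Tagln, a smooth muscle and myofibroblast actin-binding protein gene, measured 1648, 1911 and 2919 in remote tissue at 1 week and no more than 864 on the other 9 arrays, a shift of 1.65 ± 0.37 (SE, adjusted p = 0.003). Among immediate early genes 3 of 26 shifted higher, near the 8.58% of all genes. Egr2 measured 106, 110.3 and 150 in sham tissue and 134, 172 and 172 in remote tissue at 48 h. Egr2 at 1 week measured 33.2, 57.6 and 53.6 in sham tissue and 388, 587 and 425 in remote tissue. Egr2 encodes a zinc finger transcription factor, and its remote arrays at 1 week exceeded all others while the sham arrays at 1 week were the dimmest, a shift of 2.15 ± 0.32 (SE, adjusted p = 1.5e-05). Jund and Klf6, further transcription factor genes, shifted by 0.73 ± 0.18 and 0.71 ± 0.22. Fos, which pairs with Jun proteins, had a shift of 0.40 ± 0.58 (SE, adjusted p = 0.70), which did not pass.

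Of the genes known to respond to load in cardiomyocytes, Nppa and Sprr1a shifted higher and Nppb was high at both times. Nppa measured 1363, 1314 and 1089.8 in sham tissue and 2961, 2819 and 2867 in remote tissue at 48 h. Nppa at 1 week measured 814, 848 and 1111 in sham tissue and 5296, 7219 and 5347 in remote tissue. Nppa encodes the atrial natriuretic peptide; remote arrays lay above sham at both times, at 2.26 times its level at 48 h and 6.18 times at 1 week, a shift of 1.45 ± 0.44 (SE, adjusted p = 0.022). Nppb measured 6879, 4626 and 8376 in sham tissue and 17245, 20339 and 25936 in remote tissue at 48 h. Nppb at 1 week measured 4082, 6899 and 8567 in sham tissue and 15391, 19392 and 15044 in remote tissue. Nppb, the gene of the related peptide BNP, was 3.23 times sham at 48 h and 2.64 times sham at 1 week, with no overlap of remote and sham arrays at either time and no shift called (-0.29 ± 0.40 SE, adjusted p = 0.69, 95% interval -1.10 to 0.52). Sprr1a measured 185, 155 and 125 in sham tissue and 214, 136 and 76.7 in remote tissue at 48 h. Sprr1a at 1 week measured 148, 29.0 and 61.7 in sham tissue and 1224, 1578 and 1131 in remote tissue. Sprr1a, a small proline-rich protein gene known to be induced in stressed cardiomyocytes, was not called at 48 h and measured over 1000 on each remote array at 1 week, a shift of 3.69 ± 0.39 (SE, adjusted p = 7.6e-08). Atrial markers had 2 of 7 called higher in the shift, or 1 to 3 with any 1 array left out, and a median shift of 0.72. Their part in the shift of Nppa was not tested.

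The list on wall stress and fetal cardiac genes had 2 of 16 called higher, where 8.58% of all genes were, and a median shift of 0.21. Uchl1, a ubiquitin hydrolase gene, shifted by 1.16 ± 0.28 (SE, adjusted p = 0.0057). Fhl1, a LIM protein gene of stretch-sensing complexes, was 1.87 above sham at 48 h and 1.26 at 1 week (shift -0.61 ± 0.27 SE, adjusted p = 0.12). Acta1, skeletal alpha-actin, had a shift of 0.14 ± 0.33 (SE, adjusted p = 0.83), Ankrd1, a titin-binding repeat protein, one of 0.18 ± 0.26 (SE, adjusted p = 0.70) and Myh7, the beta myosin heavy chain gene, one of 1.00 ± 0.73 (SE, adjusted p = 0.39), none past the threshold. Myh6 measured 30175, 30981 and 25556 in sham tissue and 25369, 23036 and 28283 in remote tissue at 48 h. Myh6 at 1 week measured 27851, 26872 and 25102 in sham tissue and 22083, 18540.3 and 16398 in remote tissue. Myh6, the adult ventricular myosin gene, had lower arrays in remote tissue at 1 week than in sham, and its shift of -0.32 ± 0.58 (SE, adjusted p = 0.78) had a 95% interval of -1.50 to 0.86. Sarcomere genes had 1 of 18 called higher and a median shift of -0.29, the called gene being Tpm1 (0.76 ± 0.27 SE, adjusted p = 0.049). Calcium handling genes had 1 of 14 called lower (5.01% of all genes) and a median shift of -0.30, the called gene being Slc8a1, the sodium-calcium exchanger (-0.66 ± 0.22 SE, adjusted p = 0.042). Both of these calls ended without the remote 1-week array of the highest title number. Atp2a2, the calcium pump gene of the sarcoplasmic reticulum, had a shift of -0.22 ± 0.36 (SE, adjusted p = 0.75). Of 18 ion channel genes 1 was called lower, near the 5.01% of all genes. It was Kcnk3, a potassium leak channel gene, at -1.25 ± 0.36 (SE, adjusted p = 0.017), from -0.32 at 48 h to -1.56 at 1 week.

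Fatty acid oxidation had the largest share of members called lower among the 32 pathway lists. It had 12 of 21 called lower and a median shift of -0.87, where 5.01% of all genes were called lower, and its median response went from -0.23 at 48 h to -1.02 at 1 week, when 20 of 21 genes were lower (17.7% of all genes were). Slc25a20 measured 5059, 3588 and 4556 in sham tissue and 5181, 4850.2 and 4716 in remote tissue at 48 h. Slc25a20 at 1 week measured 7056, 5598 and 5249.8 in sham tissue and 3109, 1944 and 1810.4 in remote tissue. Slc25a20 encodes the carrier that brings acylcarnitines into mitochondria; remote and sham arrays overlapped at 48 h, and at 1 week all remote arrays lay below sham, with sham at 2.63 times the remote level, a shift of -1.57 ± 0.29 (SE, adjusted p = 0.00037). Eci1 measured 9336, 9339 and 8016 in sham tissue and 7434, 7645 and 8462 in remote tissue at 48 h. Eci1 at 1 week measured 11441, 10277 and 9503 in sham tissue and 5256, 3306 and 2546 in remote tissue. Eci1, an enoyl-CoA isomerase gene for unsaturated fatty acids, likewise separated at 1 week only, with a shift of -1.36 ± 0.31 (SE, adjusted p = 0.0036). Eci2, a related isomerase gene, shifted by -1.31 ± 0.26 (SE, adjusted p = 0.00086), Hadh, which encodes a dehydrogenase of the cycle, by -1.12 ± 0.26 (SE, adjusted p = 0.004), and Acot1, an acyl-CoA thioesterase gene, by -1.57 ± 0.42 (SE, adjusted p = 0.0096).

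Outside that pathway, the list of lipid uptake and PPAR targets had 2 of 23 called higher and 7 lower (8.58% and 5.01% of all genes). Its median shift was -0.45. In that list 6 were lower and limma called 0 higher without the remote 1-week array of the highest title number (2 at an unadjusted p below 0.05). Pdk4 measured 5449.5, 4581 and 7337 in sham tissue and 11214, 11553 and 10481 in remote tissue at 48 h. Pdk4 at 1 week measured 14376, 10239 and 10288 in sham tissue and 9577, 3738 and 4552 in remote tissue. Pdk4 encodes a kinase that shuts pyruvate dehydrogenase and so spares glucose; remote arrays lay above the sham arrays of the same time at 48 h and below them at 1 week. The response was called at 1 week, at -1.06 ± 0.36 (SE, adjusted p = 0.018), and not at 48 h, at 0.96 ± 0.36 (SE, adjusted p = 0.09), and the shift was -2.02 ± 0.51 (SE, adjusted p = 0.007). Ucp3 measured 432, 332.4 and 283 in sham tissue and 487 to 516 in remote tissue at 48 h. Ucp3 at 1 week measured 688, 463 and 550.1 in sham tissue and 376, 108 and 116 in remote tissue. Ucp3, a mitochondrial carrier gene of muscle that follows fatty acid supply, had 2 of 3 remote arrays at 1 week far below all others and shifted by -1.97 ± 0.48 (SE, adjusted p = 0.0053). Pnpla2, the gene of adipose triglyceride lipase, shifted by -0.91 ± 0.22 (SE, adjusted p = 0.004), Lipe, hormone-sensitive lipase, by -1.13 ± 0.28 (SE, adjusted p = 0.0067). Me1, malic enzyme, shifted by -1.56 ± 0.35 (SE, adjusted p = 0.0028), and Thrsp, a regulator of lipid synthesis, by -1.52 ± 0.31 (SE, adjusted p = 0.001). Hsdl2, a peroxisomal dehydrogenase-like protein gene, shifted by -1.51 ± 0.32 (SE, adjusted p = 0.0013), with -1.37 on its second probe set. Within the group of remote arrays at 1 week the array with the lowest title number was highest for Slc25a20, Eci1, Pdk4, Ucp3 and Acot1.

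Respiratory chain genes had 16 of 64 called lower and a median shift of -0.57. At 1 week 56 of 64 were called lower (17.7% of all genes). At 48 h 1 was called lower and 2 higher (4.35% and 4.47% of all genes), with a median response of -0.19. An unadjusted p below 0.05 was reached by 12 lower members at 48 h, and by 809 of all 6670 genes. Ndufv3, a subunit gene of complex I, shifted by -1.06 ± 0.27 (SE, adjusted p = 0.0069), Sdhc, an anchor of complex II, by -0.81 ± 0.19 (SE, adjusted p = 0.0036), and Cox6a1, a subunit of complex IV, by -0.62 ± 0.16 (SE, adjusted p = 0.0067). The citric acid cycle list had 4 of 19 called lower and a median shift of -0.54, with Pdha1 and Pdhb, subunit genes of pyruvate dehydrogenase, at -0.64 ± 0.19 and -0.72 ± 0.23 and Fh1, fumarate hydratase, at -0.73 ± 0.23. Glycolysis genes had 1 of 26 called higher and 3 lower (8.58% and 5.01% of all genes) and a median shift of -0.38. Fbp2, the muscle fructose bisphosphatase gene, was on no list and shifted by -1.52 ± 0.35 (SE, adjusted p = 0.003). Lias, the lipoic acid synthase gene that serves those dehydrogenases, went from 0.47 ± 0.12 at 48 h to -0.68 ± 0.12 at 1 week, a shift of -1.15 ± 0.17 (SE, adjusted p = 2e-05). Without the remote 1-week array of the highest title number, 6 fatty acid oxidation and 3 respiratory chain genes were called lower by limma, with medians of -0.80 and -0.46. Respiratory chain genes called lower were 8 with the 12 arrays alone and 7 after quantile normalization, and 3 to 22 with 1 array left out. For the citric acid cycle limma called 0 (6 at an unadjusted p below 0.05) without that array, 2 with the 12 arrays alone and 0 (7 at an unadjusted p below 0.05) after quantile normalization, and 0 to 5 with any 1 array left out. For glycolysis genes called lower it was 0 (5 at an unadjusted p below 0.05) without that array, 4 with the 12 arrays alone and 0 (6 at an unadjusted p below 0.05) after quantile normalization. Cardiomyocyte markers had 0 of 17 called in the shift by limma (1 lower at an unadjusted p below 0.05) and a median of -0.32. The shift was below 0 for all 17, called or not, against 2973 of all 6670 genes. At 1 week 3 were called lower than sham (17.7% of all genes), with a median response of -0.45. The part of these markers in the shift of mitochondrial genes was not tested.

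Of 27 acute phase and glucocorticoid-responsive genes 13 were called higher and 1 lower at 48 h (4.47% and 4.35% of all genes), and 14 higher and 2 lower at 1 week (20.7% and 17.7%). Their shift had 2 of 27 called higher and 4 lower (8.58% and 5.01% of all genes) and a median shift of -0.15. With any 1 array left out 1 to 2 were called higher and 2 to 6 lower. Lcn2 measured 283, 422 and 643 in sham tissue and 3501, 4530.1 and 4835 in remote tissue at 48 h. Lcn2 at 1 week measured 179, 164 and 123 in sham tissue and 2002, 667 and 774 in remote tissue. Lcn2, an iron-siderophore binding protein gene of the acute phase, lay above sham at both times, 9.08 times at 48 h and 5.31 times at 1 week. Both fell between the times, sham by 1.24 (adjusted p = 0.038), and the shift of -0.77 ± 0.42 (SE, adjusted p = 0.24) was not called. Mt1 measured 5704, 5529 and 5306 in sham tissue and 12369, 12367 and 13963 in remote tissue at 48 h. Mt1 at 1 week measured 8496, 6672 and 6880.1 in sham tissue and 11618, 6678 and 7747 in remote tissue. Mt1 and Mt2 encode metallothioneins, which bind zinc and copper, and the shifts of -1.01 ± 0.27 (SE, adjusted p = 0.009) and -1.02 ± 0.33 (SE, adjusted p = 0.035) were called. At 1 week Mt2 remained 1.31 above sham (adjusted p = 2.5e-05), and Mt1 was 0.21 above it (adjusted p = 0.42). Lrg1, a secreted leucine-rich glycoprotein gene, shifted by -0.81 ± 0.24 (SE, adjusted p = 0.021). Cdkn1a, the cell cycle inhibitor p21, was 1.94 above sham at 48 h and 1.11 at 1 week, a shift of -0.83 ± 0.31 (SE, adjusted p = 0.072) that missed the threshold. Apod measured 279.6, 239 and 199 in sham tissue and 1805, 805 and 931 in remote tissue at 48 h. Apod at 1 week measured 464, 453 and 149 in sham tissue and 439, 332.4 and 217 in remote tissue. Apod, a lipocalin gene that carries small lipids, was above all sham arrays at 48 h and overlapped them at 1 week, a shift of -2.04 ± 0.43 (SE, adjusted p = 0.0014).

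Clock genes had 3 of 20 called higher and 2 lower (8.58% and 5.01% of all genes) and a median shift of 0.22. Of the clock genes 1 to 2 were called lower with any 1 array left out, and limma called 0 (2 at an unadjusted p below 0.05) lower with the 12 arrays alone. Dbp measured 984, 1021 and 1087 in sham tissue and 217, 226 and 43.5 in remote tissue at 48 h. Dbp at 1 week measured 869, 629.8 and 904 in sham tissue and 225, 319.7 and 459 in remote tissue. Dbp, an output transcription factor of the clock, was below sham on all remote arrays at both times and less so at 1 week, a shift of 1.35 ± 0.46 (SE, adjusted p = 0.043). Per1, a clock repressor gene that glucocorticoids induce, went from -0.76 to 0.40, a shift of 1.16 ± 0.28 (SE, adjusted p = 0.0048), and Nfil3, a repressor that opposes Dbp, from 0.82 to -0.06, a shift of -0.89 ± 0.25 (SE, adjusted p = 0.014). Arntl, a core activator of the clock, was called at 48 h (1.00) with a shift of -0.50 ± 0.35 (SE, adjusted p = 0.38). The hour of tissue collection is not given in the sources used here, and its part in the clock genes was not tested. Proteasome genes had 5 of 34 called lower and a median shift of -0.33, with Psma2 and Psma6, subunits of the core particle, at -0.66 ± 0.14 and -0.75 ± 0.17. Heat shock genes had 4 of 23 called lower and a median shift of -0.22, with the mitochondrial chaperones Hspa9 and Hspe1 at -0.76 ± 0.21 and -0.68 ± 0.20. Redox genes had 2 of 35 called higher and 7 lower (8.58% and 5.01% of all genes) and a median shift of -0.23. Gstk1, a glutathione transferase gene of mitochondria and peroxisomes, shifted by -1.47 ± 0.33 (SE, adjusted p = 0.003), Prdx3, a mitochondrial peroxiredoxin gene, by -0.81 ± 0.23 (SE, adjusted p = 0.015). Prdx4, a peroxiredoxin gene of the endoplasmic reticulum, shifted the other way, by 1.07 ± 0.24 (SE, adjusted p = 0.0027). Leaving out the remote 1-week array of the highest title number, 2 proteasome, 1 heat shock and 2 redox genes were called lower. Over all 12 arrays left out in turn these counts were 2 to 7, 1 to 3 and 2 to 9, with the 12 arrays alone 2, 2 and 5, and after quantile normalization 3, 1 and 4. Cytosolic ribosomal proteins had 0 of 28 called in either direction by limma, with 1 each way at an unadjusted p below 0.05, and a median of 0.02.

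**Figure D3:**
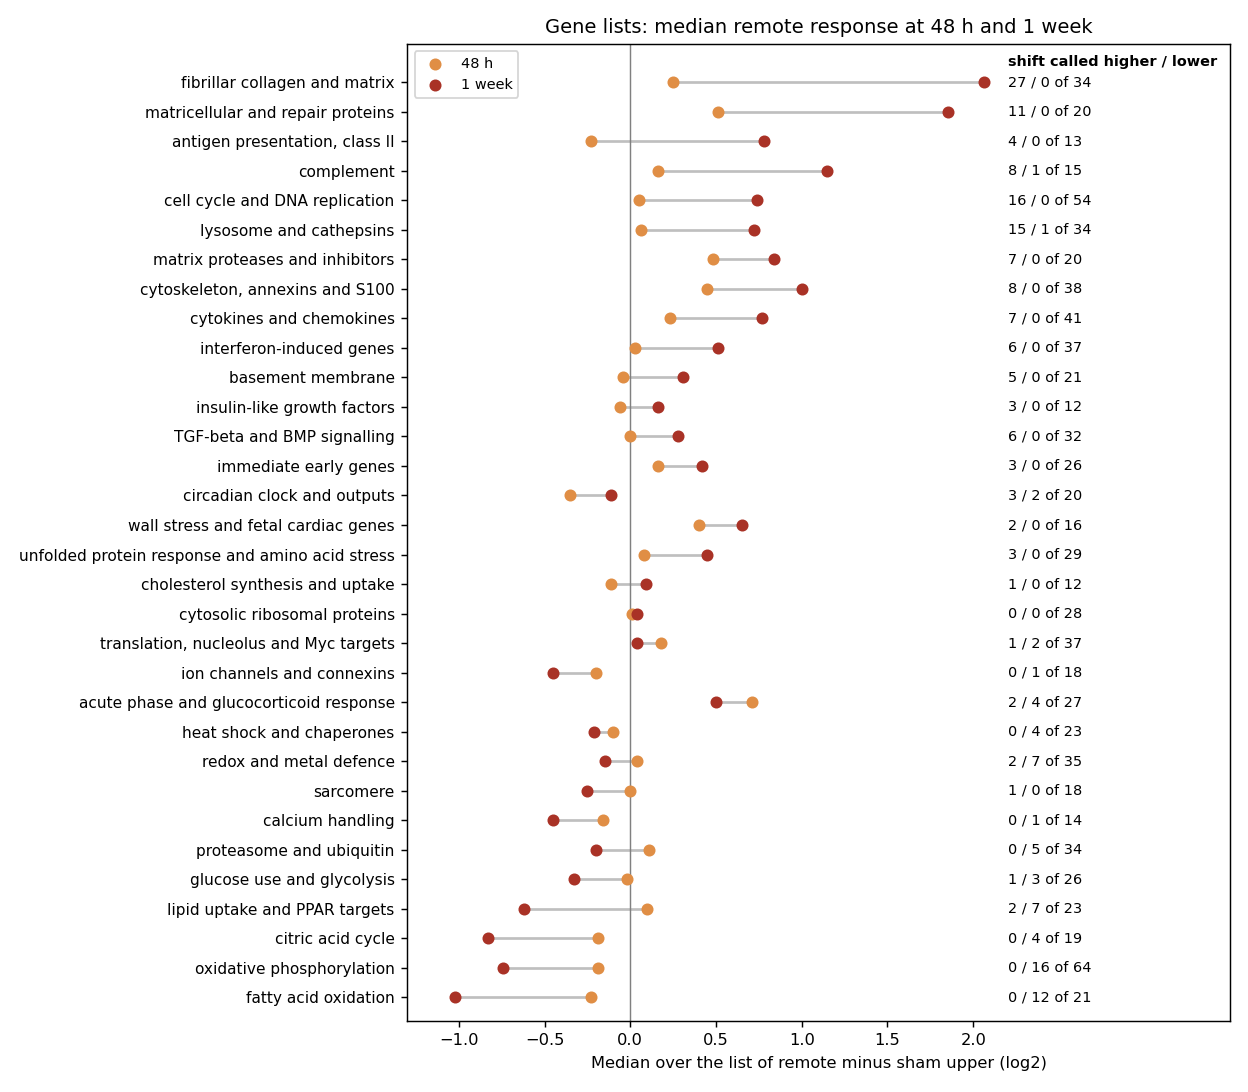
For each of 32 gene lists the orange point is the median log2 difference between remote and sham upper tissue at 48 h and the red point that at 1 week; the numbers at the right count the members whose shift was called higher or lower, of those tested. Lists run from fibrillar collagen and matrix (27 of 34 higher) at the top to fatty acid oxidation (12 of 21 lower) at the bottom.

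Further single genes were among the 15 largest falls. Get4 measured 67.7, 44.5 and 38.2 in sham tissue and 255, 197 and 180 in remote tissue at 48 h. Get4 at 1 week measured 179, 237 and 287 in sham tissue and 59.9, 191 and 183 in remote tissue. Get4, which encodes a factor for inserting tail-anchored proteins, had the lowest shift of all, -2.05 ± 0.40 (SE, adjusted p = 0.00058), and here sham tissue moved (1.54 ± 0.28 SE, adjusted p = 0.015) while remote tissue was not called (-0.51 ± 0.28 SE, adjusted p = 0.19). Dsg2 measured 662.1, 718 and 668 in sham tissue and 1068, 926 and 1223 in remote tissue at 48 h. Dsg2 at 1 week measured 1305, 866 and 999 in sham tissue and 611, 370.1 and 328.5 in remote tissue. Dsg2, the desmosomal cadherin gene of cardiomyocytes, had its remote arrays above sham at 48 h and below sham at 1 week and shifted by -1.83 ± 0.29 (SE, adjusted p = 5e-05), with -0.82 (adjusted p = 0.091) on its second probe set. Agt, the precursor gene of angiotensin, was dim in most arrays and shifted by -1.80 ± 0.56 (SE, adjusted p = 0.027). Nr0b2, an orphan receptor gene known from bile acid control, shifted by -1.64 ± 0.41 (SE, adjusted p = 0.0067), and Baiap2l1 and Egfbp2, both dim, by -1.71 ± 0.45 (SE, adjusted p = 0.0088) and -1.48 ± 0.46 (SE, adjusted p = 0.025). The value added before the log shrinks the shift of dim genes such as Agt and Baiap2l1.

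In 16 genes the response was called in opposite directions at the separate times and the shift was called too. Of these, 10 went from lower to higher than sham: H2-Aa, H2-Ab1, Cd74, H2-K1, H2-Q4, Itih5, P4hb, Rasal3, Rcor1 and Tbxas1. Itih5 measured 374, 529 and 589 in sham tissue and 201, 202 and 214 in remote tissue at 48 h. Itih5 at 1 week measured 353, 323 and 381 in sham tissue and 671.7, 679 and 1049.7 in remote tissue. Itih5, which encodes a hyaluronan-linked matrix protein, went from -1.09 ± 0.22 to 1.06 ± 0.22, and its remote and sham arrays did not overlap at either time. P4hb, the beta subunit gene of the enzyme that hydroxylates collagen prolines, shifted by 1.91 ± 0.45 (SE, adjusted p = 0.0039), but sham tissue moved by -1.36 ± 0.32 (SE, adjusted p = 0.037) and on its second probe set the shift was -0.27 (adjusted p = 0.61). The 6 that went from higher to lower were Cidea, Lipe, Abhd5, Lias, Parl and Ddx24. Cidea, Lipe and Abhd5 act on lipid droplets. Cidea measured 862, 684 and 802 in sham tissue and 1279, 1328 and 1253 in remote tissue at 48 h. Cidea at 1 week measured 1249.5, 904 and 896 in sham tissue and 814, 602 and 435 in remote tissue. Its remote and sham arrays did not overlap at either time, with a shift of -1.40 ± 0.29 (SE, adjusted p = 0.0013).

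Summed markers of other cell types moved with these groups. Over 28 macrophage markers the sum was 16008 to 20165 in sham and 15996 to 22127 in remote tissue at 48 h, and 13624 to 18748 and 50710 to 73188 at 1 week. Over 17 fibroblast markers, which include collagen genes, it was 41017 to 41606 in sham and 91441 to 108921 in remote tissue at 1 week and overlapped at 48 h. Over 15 neutrophil markers it was highest in remote tissue at 48 h (5518 to 6834) and 2204 to 3450 at 1 week, against 914 to 1969 in sham. S100a8 and S100a9, calcium-binding proteins of neutrophils, were called higher at 48 h (1.67 and 1.73) and not at 1 week, and their shifts of -1.15 ± 0.65 (SE, adjusted p = 0.25) and -1.86 ± 0.75 (SE, adjusted p = 0.091) were not called either. The neutrophil list did not follow them: 3 of 13 were called higher at 48 h and 5 at 1 week (4.47% and 20.7% of all genes). Its median response was 0.24 and 0.52, and its median shift 0.18. In the shift 1 of 13 was called higher (8.58% of all genes), or 0 to 2 with any 1 array left out. Endothelial markers had 1 of 23 called higher (8.58% of all genes) and a median shift of -0.11. The called gene was the adhesion molecule Vcam1 (1.52 ± 0.37 SE, adjusted p = 0.0055), with 0.32 and 0.78 on its other probe sets. Red cell markers summed to 13048 to 21591 in remote tissue at 1 week and to 23115 to 36149 elsewhere, and the beta-globin gene Hbb-b2 shifted by -1.06 ± 0.34 (SE, adjusted p = 0.032). The part of these cell types in the shift of other genes was not tested.

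The remote 1-week array of the highest number led the summed markers of B cells and of the heart's outer lining. It also led those of macrophages (50710, 51005 and 73188), fibroblasts (91441, 104938 and 108921) and T and natural killer cells (1306, 1257 and 2567). Sums of neutrophil (3450, 2204 and 3193), endothelial and red cell markers were not highest on it. Ighm measured 426, 452 and 429 in sham tissue and 323, 309.8 and 245 in remote tissue at 48 h. Ighm at 1 week measured 288, 336 and 405 in sham tissue and 916, 406 and 2168 in remote tissue. Ighm, the immunoglobulin mu chain gene, shifted by 1.87 ± 0.52 (SE, adjusted p = 0.014), a call that ended without that array (1.37 (adjusted p = 0.092)). Krt8, a keratin gene of mesothelium, measured 292, 129 and 676 on the remote 1-week arrays, and Adipoq, the adiponectin gene of fat cells, measured 269, 162 and 1178, where sham arrays at 1 week reached 33.2 and 76.7; Adipoq was singled out after its values were seen. Car3, also singled out after its values were seen, had the same order, at 282.5, 107.6 and 931.8, where sham arrays at 1 week reached 90.8. Its shift of 1.91 ± 1.22 (SE, limma, adjusted p = 0.32) was not called. The summed adipocyte markers were 16224, 13407 and 13816 on those arrays. Adipoq is a small part of that sum, so the sum cannot show whether fat cells differed between them. The mesothelial list had 3 of 9 called higher and a median shift of 0.95, and Upk3b, a uroplakin gene of mesothelium, shifted by 1.82 ± 0.48 (SE, adjusted p = 0.009). Among genes named above, the calls of Acot1, Dbp, Egfbp2, Fh1, Hspe1, Klf6, Mt2, Pdha1, Pdhb, Prdx3, Slc8a1, Tgif1 and Tpm1 also ended without it. In a fit of the 12 arrays alone the calls of Abhd5, Acot1, B2m, Cdk1, Cks1b, Cox6a1, Dbp, Egfbp2, Fh1, Hbb-b2, Ighm, Krt8, Lipe, Lrg1, Mt2, Nfil3, Nr0b2, Pnpla2, Prdx3, Slc8a1, Tgif1 and Tpm1 ended, and after quantile normalization those of Cox6a1, Dbp, Fh1, Hbb-b2, Hspa9, Hspe1, Mt1, Mt2, Pdha1, Pdhb, Prdx3, Slc8a1 and Tpm1. Second probe sets of C1qb, Nfil3 and Slc8a1 were not called. The other probe sets of Ighm gave 1.42 (limma, adjusted p = 0.0058) and 0.75 (adjusted p = 0.53).

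**Figure D4:**
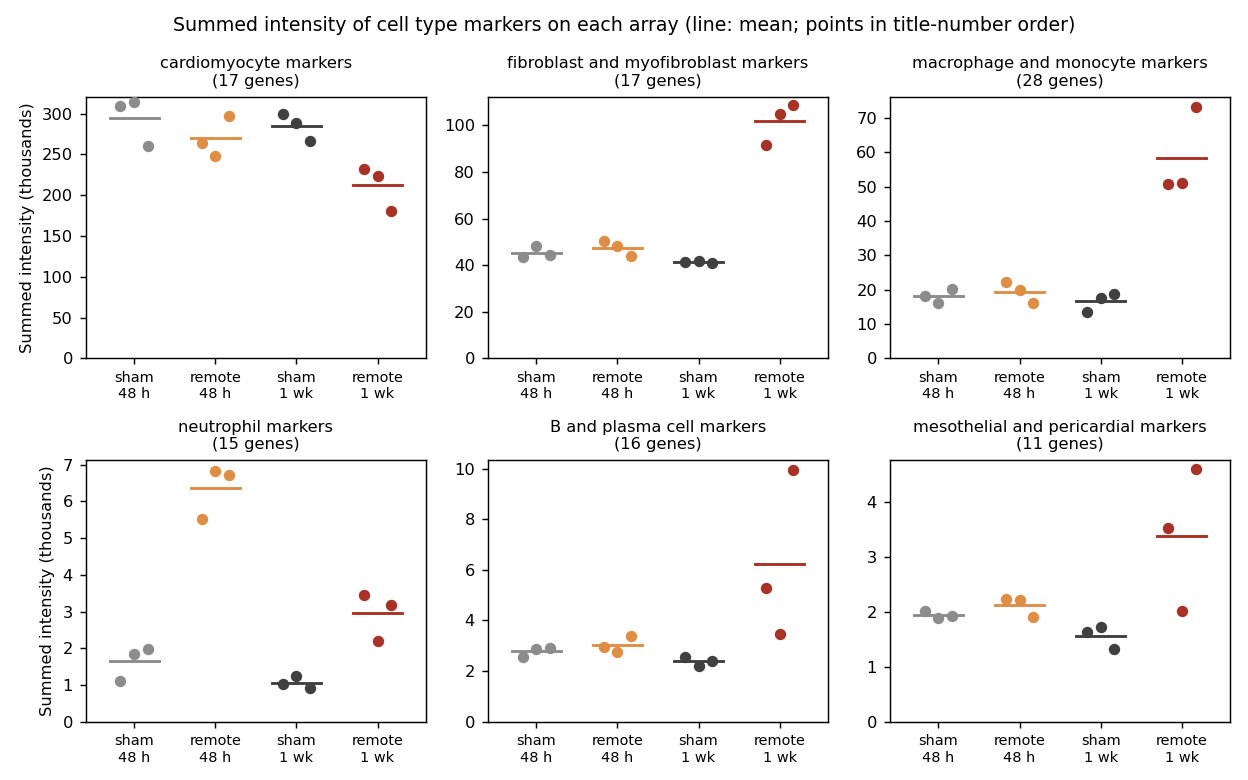
Summed intensity (in units of 1000, axis from 0) of 6 sets of cell type markers on each array of the 4 groups, points in title-number order and lines at the mean. Macrophage and fibroblast sums stand above all others in remote tissue at 1 week, and neutrophil sums in remote tissue at 48 h. In remote tissue at 1 week the array with the highest title number leads the macrophage, fibroblast, B cell and mesothelial sums.

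Infarct arrays with the same title numbers as the remote arrays, set against the same sham arrays, give values side by side. In the infarct, 50.9% of all genes were called at 48 h and 60.5% at 1 week. Its own shift was called in 1757 genes (26.3%), 985 higher and 772 lower (14.8% and 11.6%). A direct test of the change in remote tissue against the change in infarct tissue, in which the sham arrays cancel, was called in 656 genes (9.84%), 353 with the more positive change in remote tissue (5.29%) and 303 with the less positive (4.54%). Postn was 1.69 and 4.41 above sham in the infarct at 48 h and 1 week and 0.99 and 4.47 in remote tissue, and the difference between the changes was not called (0.77 ± 0.36 SE, adjusted p = 0.18). Those of Col1a1 (0.92 ± 0.48 SE, adjusted p = 0.23) and Ccl8 (0.00 ± 0.65 SE, adjusted p = 1.00) were not called either. H2-Aa was -0.04 in the infarct at 48 h and 1.88 at 1 week, and the change in remote tissue was larger by 1.44 ± 0.48 (SE, adjusted p = 0.047). Cd74 and H2-Ab1 differed the same way, by 1.38 ± 0.44 (SE, adjusted p = 0.04) and 1.54 ± 0.45 (SE, adjusted p = 0.024). Tagln went from -0.67 to 2.71 in the infarct, a change that exceeded that of remote tissue (-1.73 ± 0.34 SE, adjusted p = 0.00093). So did the changes of Ctsk (-1.20 ± 0.27 SE, adjusted p = 0.0028) and Pltp, a phospholipid transfer protein gene (-1.20 ± 0.25 SE, adjusted p = 0.0012). Eci1 fell to -3.60 in the infarct and Slc25a20 to -2.56, from -1.82 and -1.20 at 48 h, and the difference between the changes was not called for either (0.41 ± 0.29 SE, adjusted p = 0.40, and -0.20 ± 0.27 (SE, adjusted p = 0.69)).

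Over the 6 times of the series, 1 week held the highest response of the 6 matrix and antigen presentation genes followed and the lowest of the 3 fatty acid genes. All 9 had a called shift from 48 h to 1 week, and that choice by itself favours an extreme at 1 week. Postn was 0.50 above sham at 24 h, 0.99 at 48 h, 4.47 at 1 week and 2.05 at 8 weeks. H2-Aa stood at 0.01 at 4 h, -0.93 at 24 h, -1.95 at 48 h, 1.41 at 1 week and 0.22 at 8 weeks, so that its low point came at 48 h. Slc25a20 stood at 0.14 at 24 h and -0.35 at 8 weeks, on either side of -1.40 at 1 week. Of the 9 genes Postn was the 1 still called at 8 weeks (adjusted p = 3.4e-05). Col1a1 was 1.30 ± 0.36 (SE) above sham then and was not called (limma, adjusted p = 0.20).

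**Figure D5:**
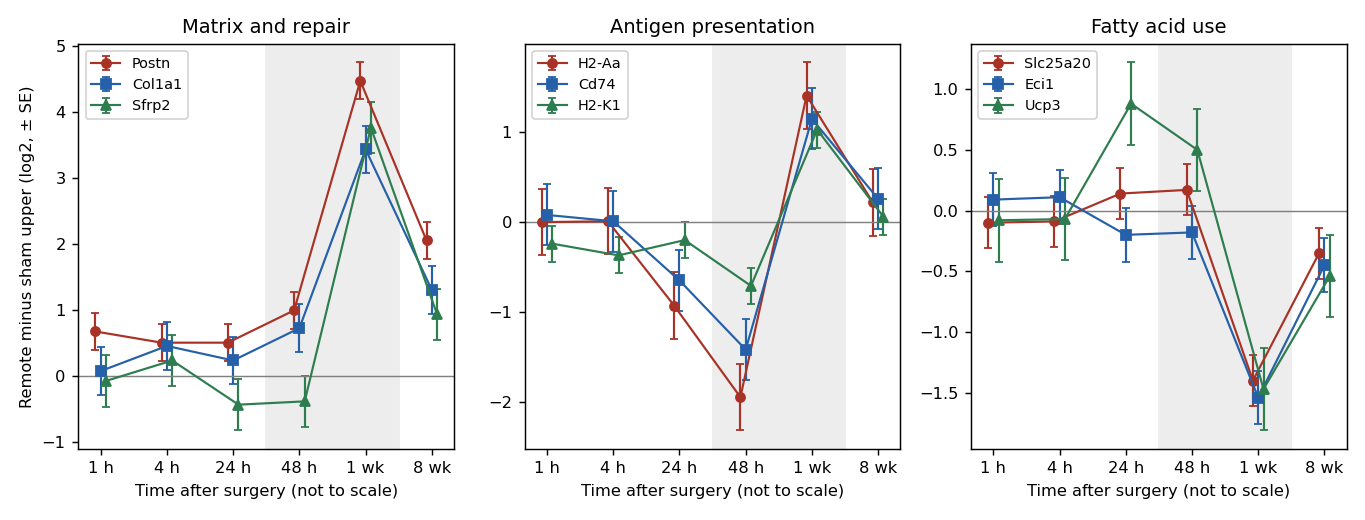
Log2 difference between remote and sham upper tissue at 6 times after surgery (x axis, not to scale) for 3 matrix, 3 antigen presentation and 3 fatty acid genes; bars are ± SE from the fit and the shaded band marks 48 h and 1 week. Postn reaches 4.47 at 1 week, H2-Aa goes from -1.95 to 1.41, and Eci1 falls to -1.54.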

How the data were processed

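Total RNA from 59 left ventricle pieces of mice was hybridised to 1 Affymetrix array each, and the 12 arrays compared here were grouped by title. The deposited files held linear intensities, which the authors had scaled so that the mean between the 2nd and the 98th percentile was 500.3 to 500.4 on every array. The scaling tool is not given in the sources used here. Intensities ran from 0 to 35489.2 and 4 were at 0. No pair of arrays was identical (highest correlation 0.989), and their number, not a read depth, limits the precision.

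Of 12488 probe sets, 66 controls, 396 with several genes and 1193 with none were left out. The other 10833 covered 8251 genes, and a gene with several (2073 genes) took its probe set of highest mean over all arrays. Symbols were checked against RefSeq (GRCm38.p6), which changed 0. Genes at 108.2 (the 40th percentile) or more on at least 3 arrays were kept, 6670 in all. A gene dim elsewhere could pass through the groups where it was high, as C1qtnf3 did. Values were log2 of intensity plus 45.6, which is 0.25 times the median of all values (182.4).

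Contrasts were fitted in R 4.3.3 with limma 3.58.1 over all 59 arrays in 23 groups, with Benjamini-Hochberg adjustment and a threshold of 0.05. The title number, which remote and infarct arrays share, was taken to mark a mouse and entered as a random block (duplicateCorrelation, consensus correlation 0.148). The labels do not state its meaning. Residual degrees of freedom were 36. On simulated data for the shift, with 50 of 6670 genes changed at each size, the fit recovered 16% of genes changed by 0.5 on the log2 scale, 60% by 1, 98% by 2 and 100% by 3.

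The comparison, its gene lists and its fixed gene panel were chosen with earlier results of these data known. Named genes were the 15 largest rises and falls, up to 4 genes of lowest p per list and the panel. Genes with opposite calls at the separate times, Adipoq, Car3 and promoter motifs were added after the values were seen. The panel genes Spp1 and Cpt1b had no probe set of their own. Lists (32 pathway, 17 cell type) are given as counts and medians with no set test. Alternatives were another added value, quantile normalization, other filters, every probe set, no block, fewer arrays in the fit, both sham regions as control, array weights and leaving out each array. Tables were made with Python 3.11.15 and pandas 2.3.3 and figures with matplotlib 3.10.9.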

Additional observations from a re-analysis of the deposited data

Results flagged for a closer look

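For 16 genes the response differed between the times by the test of the difference itself while it was called in opposite directions at 48 h and at 1 week. The log2 shift was above 0 for H2-Aa (3.36), H2-Ab1 (2.90), Cd74 (2.57), Itih5 (2.15), P4hb (1.91), H2-K1 (1.74), H2-Q4 (1.47), Rasal3 (1.26), Rcor1 (1.18) and Tbxas1 (0.94). It was below 0 for Cidea (-1.40), Ddx24 (-1.15), Lias (-1.15), Lipe (-1.13), Abhd5 (-0.77) and Parl (-0.75). Sham tissue itself differed between the times for P4hb and Rcor1, by -1.36 (limma, adjusted p = 0.037) and -0.64 (adjusted p = 0.038). A second probe set of Ddx24 had a shift of 0.59 (adjusted p = 0.28), opposite in sign and not called. With 3 arrays a group, single arrays were not tested for standing apart within their group.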

How the results depend on the processing

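All numbers here count genes with an adjusted p below 0.05 in limma. The shift (906 genes) was called in 492 genes (331 higher, 161 lower) in a fit of the 12 arrays alone, in 707 after quantile normalization (403 higher, 304 lower, which moved the median over all genes from 0.06 to -0.04), and in 851 to 1247 with another added value, filter, probe set rule, control or weighting. Leaving out 1 array gave 500 to 984, with 500 (346 higher) without the remote 1-week array of the highest title number. Without the replicate block by title number 899 genes were called in the shift, 579 at 48 h, 2558 at 1 week, 1553 between the remote groups and 58 between the sham groups, so the block moved no count by 1.5 times. The numbers link remote to infarct arrays and no pair of the 12 arrays. The response at 48 h (588) was called in 268 genes with the 12 arrays alone, in 885 with array weights, whose estimation stopped before converging, and in 285 to 585 with 1 array left out, 333 without the middle sham 48 h array and 285 without the highest remote 48 h array. The response at 1 week (2558) ranged from 2070 to 2359 with 1 array left out, and remote tissue at 1 week against 48 h (1569) from 733, without the highest remote 1-week array, to 1635. Sham tissue at 1 week against 48 h (57, or 1011 at an unadjusted p below 0.05) moved most: 8 genes after quantile normalization (3 higher, 5 lower), 5 with the 12 arrays alone, 37 with remote and sham upper arrays, 2 with sham upper and lower arrays together and 565 with array weights. Leaving out any 1 sham array gave 0 to 18, with 0 without the middle sham array of either time (764 and 767 at an unadjusted p below 0.05). Of 233 genes examined singly 153 were called in the shift and 92 were called in every setting. Genes near background are measured least well, as the added value shrinks their shifts.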

Other observations

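Calls in further lists were as follows, where 13.6% of all genes were called. The list on the unfolded protein response had 3 of 29 called higher and a median shift of 0.18, namely Pdia3, a disulfide isomerase gene of the endoplasmic reticulum (0.81 ± 0.28 SE, adjusted p = 0.041), Dnajc3, a co-chaperone gene there (0.98 ± 0.26 SE, adjusted p = 0.011), and Asns, asparagine synthetase (0.64 ± 0.18 SE, adjusted p = 0.012). Dnajc3 had shifts of -0.03 and 0.27 on its other probe sets. Of that list 1 was called without the remote 1-week array of the highest title number, 1 to 5 with any 1 array left out and 1 with the 12 arrays alone. Among 12 genes of insulin-like growth factors the 3 called members were the binding proteins Igfbp2 (0.93 ± 0.30 SE, adjusted p = 0.035), Igfbp4 (0.98 ± 0.29 SE, adjusted p = 0.019) and Igfbp7 (1.04 ± 0.34 SE, adjusted p = 0.036), and limma called 0 of the list without that array (3 at an unadjusted p below 0.05). A second probe set of Igfbp4 gave 0.35 (limma, adjusted p = 0.54). Of 12 cholesterol genes Abca1, the gene of a cholesterol exporter, was called (1.29 ± 0.31 SE, adjusted p = 0.0048). The translation list had 1 of 37 called higher and 2 lower and a median shift of -0.09, with the elongation factor Eef1a1 at 0.46 ± 0.15, the nuclear transport GTPase Ran at -0.43 ± 0.15 and the chaperonin subunit Cct3 at -0.59 ± 0.21. The other probe sets of Cct3 gave -0.37 (limma, adjusted p = 0.61) and -0.25 (adjusted p = 0.54). Of the translation list limma called 0 either way without that array (1 higher and 5 lower at an unadjusted p below 0.05).

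Among markers of rarer cells, Thy1, a surface protein gene of T cells and of fibroblasts, went from -0.95 at 48 h to 1.04 at 1 week, a shift of 1.99 ± 0.53 (SE, adjusted p = 0.01). Cd72, a B cell receptor partner gene, shifted by 1.99 ± 0.40 (SE, adjusted p = 0.0011), and Cma1, a mast cell chymase gene, by 1.43 ± 0.42 (SE, adjusted p = 0.018). Dkk3, a secreted Dickkopf family gene that atrial muscle also expresses, shifted by 2.58 ± 0.72 (SE, adjusted p = 0.013). The adipocyte list had 3 of 13 called lower and a median shift of 0.09, the called members being Lipe, Cidea and Agt, while Adipoq had a shift of 1.75 ± 1.07 (SE, adjusted p = 0.30). Without the remote 1-week array of the highest title number the calls of Thy1, Cma1 and Dkk3 ended.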
